A study of Mus musculus with 6 samples.

Results

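The genes described here encode the nuclear-made subunits of complex III, complex IV and ATP synthase of the mitochondrial inner membrane, and cytochrome c, which carries electrons between the first and the second of these. They were found by symbol: each probe set with 1 gene symbol on the platform whose symbol begins with Uqcr, Cox4, Cox5, Cox6, Cox7, Cox8 or Atp5, or is Cyc1 or Cycs. That gave 66 of 28944 probe sets, which read 44 of 19938 genes: 9 of complex III, 1 of cytochrome c, 17 of complex IV and 17 of ATP synthase. A further 3 probe sets carry the symbol Cox7c beside a second one and are named here by neither. Where a gene has several probe sets, the brightest on average was used, and 13 of the 44 genes have several probe sets.

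The study put RNA of the left ventricle on 6 Affymetrix arrays, from male C57BL/6 mice aged 10 weeks. The 2MT group has 3 arrays and received 2-methyl-2-thiazoline, a small thiazoline compound, under the skin at 50 mg/kg. The saline group has 3 arrays of the same strain, sex, age and tissue, and hearts were taken 4 h after injection. The protocol text on all 6 samples describes the 2MT injection, so the group comes from each sample's own treatment label, and nothing says that each array is a separate animal. The p-values therefore reflect only how far these samples spread, and that spread may be technical.

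Complex III passes electrons from ubiquinol to cytochrome c, and complex IV, cytochrome c oxidase, passes them on to oxygen. Both move protons across the inner membrane, and ATP synthase uses the returning protons to make ATP. Heart muscle depends on this chain for nearly all of its ATP, and several complex IV subunits exist in a heart and muscle isoform and a liver, or widely expressed, isoform.

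The values are log2 signals as deposited. A gene was tested where its mean signal over the arrays reached 4.345, the median of all probe sets, which left 10547 genes, and signal over background is not known. Of the 44 genes, 41 were tested, and the other 3, Cox6b2, Cox7b2 and Cox8c, lay under that floor. Cardiomyocyte markers were high on every array: the mean over 8 of them was 12.22 to 12.25 on the 2MT arrays and 12.21 to 12.24 on the saline arrays. The ventricular light chain Myl2 averaged 12.62 in 2MT and 12.61 in saline, and 4 liver markers had gene means between 2.13 and 3.35, all under the floor. A pair of saline arrays stood apart in markers of other tissue. The mean over 3 atrial markers (Myl7, Myl4 and Sln) was 3.71 to 3.83 in 2MT, and 4.99 on saline 2 against 3.87 and 3.92 on the other saline arrays. The mean over 3 erythrocyte markers (Alas2, Bpgm and Slc4a1) was 5.09 to 5.38 in 2MT. It was 5.97 on saline 3 against 5.04 and 5.25 on the other saline arrays. Alas2 was at 7.07 on saline 3 against 5.41 and 5.15, and Bpgm at 6.77 against 6.28 and 6.37. Slc4a1, under the floor on average, did not stand apart, at 4.08 on saline 3 against 4.07 on saline 1. Hba-a1 and Hbb-bs of this list were not found under their own symbols. In tissue RNA, fewer cells of a type and less RNA per cell cannot be told apart.

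The subunit genes differed little between 2MT and saline hearts. Uqcr11, a small accessory subunit of complex III, fell 1.19-fold and Cox4i1, the widely expressed form of subunit 4 of complex IV, fell 1.14-fold. These were the 2 genes of 41 that passed limma at an adjusted p of 0.05, and 0 rose. Of all genes tested 4.63% passed, 2.41% as lower and 2.22% as higher, so the share among the subunit genes (4.88%) was near the background. No subunit gene differed by more than 0.26 on the log2 scale, and differences ran from -0.26 to 0.15. The 95% intervals of all 41 lay between -0.38 and 0.33, so a difference missing the threshold does not show that groups were equal. The median difference was -0.05, against 0.00 for all genes tested, and the mean was lower in 2MT for 26 of 41 genes (63.4%) and for 48.1% of all genes, while it was higher for 14 genes (34.1%) and for 50.8% of all genes.

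**Figure D1:**
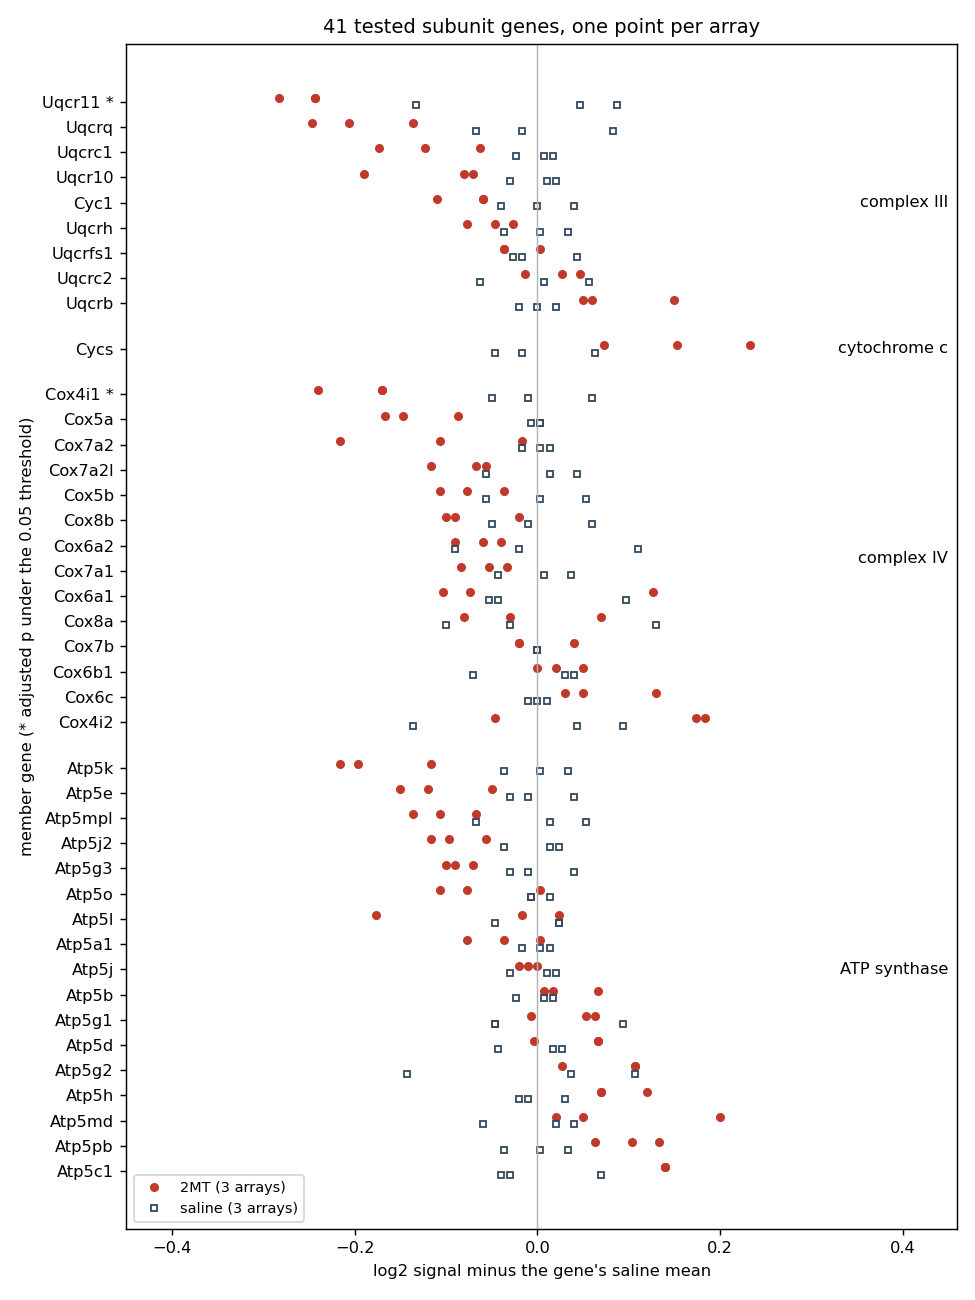
Log2 signal of each of the 41 tested genes on each array, minus the mean of that gene's saline arrays. Filled circles are the 3 2MT arrays, open squares the 3 saline arrays, a star marks an adjusted p under 0.05, and coinciding points overlap. Uqcr11 and Cox4i1 lie left of zero on all 2MT arrays, while Cycs, Atp5c1 and Uqcrb lie right of it.

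The arrays of the groups did not overlap in 17 of the 41 genes (41.5%), 11 lower and 6 higher in 2MT, against 21.1% of all genes tested (10.1% lower and 11.1% higher). At an unadjusted p of 0.05 there were 14 genes, 10 lower and 4 higher, or 34.1%, against 17.8% of all genes (8.15% lower and 9.6% higher). The subunit genes also varied less between arrays of a group: their median SD was 0.04 in 2MT and 0.04 in saline, against 0.08 and 0.10 over all genes tested. The median size of their difference was 0.08, against 0.09 over all genes. Differences of 0.2 or more were seen in 1 of 41 genes and in 15.9% of all genes. The subunit genes were brighter, with array means of 10.48 to 10.55 against 6.27 to 6.28 over all genes tested. None of the shares, SDs or sizes above was matched for signal. The 8 cardiomyocyte markers, also bright, had SDs of 0.01 to 0.07.

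Averaged over its 9 genes, complex III had log2 signals of 10.31, 10.27 and 10.32 on the 2MT arrays, against 10.40, 10.38 and 10.36 on the saline arrays. The 14 complex IV genes averaged 10.01, 9.96 and 10.01 in 2MT, against 10.03, 10.04 and 10.04 in saline. In both complexes every 2MT array lay below every saline array. The 17 ATP synthase genes averaged 10.98, 10.95 and 10.99 in 2MT, against 10.96, 10.99 and 11.01 in saline, and there the groups overlapped. These averages are given as a description, without a test.

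Sequences before the gene start are shown for the gene with the smallest p of complex III, for the lowest and highest of ATP synthase, and for cytochrome c, because these stand at both ends of the range. They are the 250 bases before the start in RefSeq (GRCm38.p6), read on the gene's strand, which is the minus strand for each: chr10:80406822-80407071 for Uqcr11, chr5:108434400-108434649 for Atp5k, chr2:10080433-10080682 for Atp5c1, the first of 2 windows of that gene, and chr6:50566570-50566819 for Cycs. Capitals mark a match to the motif of GABP (CCGGAAG) or NRF1 (GCGCA and GCGC with any 1 base between them), factors known to drive nuclear respiratory genes, searched on both strands.
Uqcr11: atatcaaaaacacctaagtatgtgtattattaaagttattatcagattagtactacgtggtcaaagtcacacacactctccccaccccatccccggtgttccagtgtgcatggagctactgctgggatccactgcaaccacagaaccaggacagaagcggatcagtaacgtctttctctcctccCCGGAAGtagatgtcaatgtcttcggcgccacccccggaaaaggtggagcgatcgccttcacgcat
Atp5k: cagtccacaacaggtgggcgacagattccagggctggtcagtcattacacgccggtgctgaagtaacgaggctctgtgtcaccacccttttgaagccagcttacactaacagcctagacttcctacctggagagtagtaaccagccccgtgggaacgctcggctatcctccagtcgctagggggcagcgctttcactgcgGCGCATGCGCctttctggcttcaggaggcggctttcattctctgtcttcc
Atp5c1: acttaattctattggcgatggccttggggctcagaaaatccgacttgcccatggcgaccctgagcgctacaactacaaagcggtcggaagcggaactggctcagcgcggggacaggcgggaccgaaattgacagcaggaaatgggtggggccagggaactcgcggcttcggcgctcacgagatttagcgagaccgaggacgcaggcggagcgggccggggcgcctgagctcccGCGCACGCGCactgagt
Cycs: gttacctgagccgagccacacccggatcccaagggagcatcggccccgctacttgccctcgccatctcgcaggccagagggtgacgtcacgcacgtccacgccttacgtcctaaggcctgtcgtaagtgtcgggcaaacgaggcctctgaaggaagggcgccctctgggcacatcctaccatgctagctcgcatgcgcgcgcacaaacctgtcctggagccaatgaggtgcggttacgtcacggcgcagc

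Uqcr11 holds the GABP letters starting 66 bases before its start, and Atp5k and Atp5c1 hold the NRF1 letters starting 50 and 17 bases before theirs, 1 in a gene that was lower and 1 in a gene that was higher. Cycs holds no exact match to either in this window, though its stretch tcgcatgcgc differs from the NRF1 letters by 1 base. Cox4i1 had no promoter window, and no complex IV sequence is shown. Of the 44 genes 33 matched a promoter window. The NRF1 letters were in 5 of them (15.2%), namely Atp5c1, Atp5g2, Atp5h, Atp5k and Cox6a1, against 4.23% of 27025 genes of any kind. The GABP letters were in 8 (24.2%), Uqcr11 among them, against 7.83%. The letters of the oestrogen-related receptors (AAGGTCA) were in 2 (6.06%, against 4.7%), those of YY1 (AAGATGGC) in 1 (3.03%, against 1.83%), those of the antioxidant response element (TGACNNNGC) in 1 (3.03%, against 11.5%) and the TATA box (TATAAA) in 3 (9.09%, against 14.3%). A match describes the letters and is not a binding site, and a search for exact letters misses sites that differ from them. The printed sequences each hold at most 1 of these motifs.

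Of the 9 complex III genes, 7 had a lower mean in 2MT. Uqcr11 had log2 signals of 9.21, 9.17 and 9.21 in 2MT hearts, against 9.54, 9.50 and 9.32 in saline hearts. Every 2MT array was below the lowest saline array, saline 3. The gene fell by 0.26 ± 0.06 on the log2 scale (SE, n = 3 each, limma adjusted p = 0.0226). Its second probe set read 9.16, 9.20 and 9.08 in 2MT, against 9.46, 9.37 and 9.18 in saline, with saline 3 lowest again and overlapping 2MT 2. The call was lost without 2MT 1, 2MT 2, 2MT 3, saline 1 or saline 2, at adjusted p values of 0.0596, 0.097, 0.0833, 0.103 and 0.0903, and kept without saline 3, at 0.00292.

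Uqcrq, a small subunit near the ubiquinone-binding site, was at 9.58, 9.47 and 9.51 in 2MT, against 9.80, 9.70 and 9.65 in saline. Its groups did not overlap, and its difference of -0.20 ± 0.05 (SE) just missed the threshold (limma adjusted p = 0.0523). Uqcrc1, 1 of the core proteins of the matrix arm, was at 10.85, 10.74 and 10.79 in 2MT, against 10.93, 10.89 and 10.92 in saline (adjusted p = 0.156). The other core protein gene, Uqcrc2, overlapped, at 11.40 to 11.46 in 2MT and 11.35 to 11.47 in saline. Uqcr10, another small subunit, was at 9.47, 9.35 and 9.46 in 2MT, against 9.55, 9.56 and 9.51 in saline (adjusted p = 0.256).

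Cyc1 and Uqcrfs1 encode subunits that carry electrons. Cyc1, which holds the haem of cytochrome c1, was at 9.78, 9.83 and 9.83 in 2MT, against 9.93, 9.89 and 9.85 in saline, without overlap (log2 difference -0.08, adjusted p = 0.417). Uqcrfs1, the Rieske iron-sulfur protein, averaged 9.53 ± 0.02 in 2MT and 9.56 ± 0.04 in saline (SD, n = 3 each). Uqcrh, the hinge protein, averaged 11.57 ± 0.03 in 2MT and 11.62 ± 0.04 in saline. Uqcrb, another accessory subunit, ran the other way, at 11.38, 11.39 and 11.48 in 2MT against 11.35, 11.31 and 11.33 in saline, and its 3 probe sets all had a higher mean in 2MT, by 0.07 to 0.12.

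Cycs, cytochrome c itself, had the highest positive difference of the 41 genes. It was at 11.82, 11.74 and 11.90 in 2MT, against 11.65, 11.62 and 11.73 in saline, so that the lowest 2MT array lay just above the highest saline array. The difference of 0.15 ± 0.05 (SE) did not pass (limma adjusted p = 0.0959), and without saline 3 it did (0.0471). Its 3 probe sets disagreed. The second read 11.32, 11.22 and 11.33 in 2MT against 11.19, 11.14 and 11.22 in saline, while the third, a dim one, read 4.98, 4.93 and 4.91 against 5.04, 5.0 and 5.29. With the mean of the probe sets the difference was 0.03.

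Of the 14 tested complex IV genes, 10 had a lower mean in 2MT. Cox4i1, a subunit that binds adenine nucleotides and adjusts the activity of the oxidase, was at 10.32, 10.25 and 10.32 in 2MT hearts, against 10.55, 10.48 and 10.44 in saline hearts. The groups did not overlap, and the gene fell by 0.19 ± 0.05 (SE, n = 3 each, limma adjusted p = 0.0288). The call was lost without 2MT 1, 2MT 2, 2MT 3, saline 1 or saline 2, at adjusted p values of 0.0621, 0.127, 0.0842, 0.121 and 0.0728, and kept without saline 3, at 0.0209. Cox5a, a subunit of the matrix side, was at 9.53, 9.45 and 9.47 in 2MT, against 9.62, 9.62 and 9.61 in saline (log2 difference -0.13, adjusted p = 0.138). Cox5b, which binds zinc, was at 11.17, 11.10 and 11.13 in 2MT, against 11.26, 11.21 and 11.15 in saline, and its 2 probe sets gave the same difference, -0.07.

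Of the 14 tested genes, Cox6c, a small membrane subunit, was the 1 higher in 2MT without overlap, at 12.03, 12.01 and 12.11 against 11.97, 11.98 and 11.99 in saline (adjusted p = 0.394). Its second probe set showed no such shift, with means of 11.88 in 2MT and 11.88 in saline. The 3 probe sets that carry the symbol Cox7c beside Gm12338 were also higher in 2MT without overlap, by 0.09 to 0.11, and the brightest read 11.92, 11.92 and 11.99 in 2MT against 11.81, 11.84 and 11.86 in saline. They did not pass (limma adjusted p = 0.209 to 0.291, probe sets tested on their own), and which of the 2 genes they read cannot be told apart. Cox7b, another small membrane subunit, averaged 11.25 in 2MT and 11.25 in saline. Cox7a2l, a relative of Cox7a2 that joins complexes III and IV into supercomplexes and of which C57BL/6 mice are known to carry a shortened form, was at 8.86, 8.91 and 8.92 in 2MT and 9.02, 8.92 and 8.99 in saline (adjusted p = 0.456).

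Heart and muscle isoforms of complex IV are encoded by Cox6a2, Cox7a1 and Cox8b, and their liver or widely expressed counterparts by Cox6a1, Cox7a2 and Cox8a. Each isoform has its own probe set, so signals are given per gene and not set against each other. Cox6a2 was at 11.51, 11.46 and 11.49 in 2MT, against 11.53, 11.66 and 11.46 in saline. Cox7a1 was at 11.51, 11.56 and 11.54 in 2MT, against 11.63, 11.60 and 11.55 in saline. Cox8b was at 11.50, 11.51 and 11.58 in 2MT, against 11.59, 11.66 and 11.55 in saline. All of these heart isoforms overlapped between groups, with log2 differences of -0.06, -0.06 and -0.07 in that order.

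Of the liver isoforms, Cox6a1 was at 8.88, 8.65 and 8.68 in 2MT, against 8.70, 8.71 and 8.85 in saline. Cox7a2 was at 8.55, 8.66 and 8.75 in 2MT, against 8.78, 8.77 and 8.75 in saline. Cox8a was at 8.15, 8.05 and 8.0 in 2MT, against 7.98, 8.05 and 8.21 in saline. These also overlapped or met, and their differences were -0.02, -0.11 and -0.01, the first and last with no settled direction: without saline 3 they were 0.03 and 0.05. The 95% intervals of the liver isoforms ran from -0.16 to 0.13 for Cox6a1, -0.24 to 0.01 for Cox7a2 and -0.16 to 0.13 for Cox8a. They hold for each gene alone, without adjustment, and rises or falls of sizes within them remain possible.

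The balance within a pair was tested as the within-array difference of the 2 isoforms, compared between groups by a two-sided exact permutation test over 5 pairs, in which 0.1 is the smallest p that 3 arrays against 3 can give. The difference of heart over liver isoform changed by -0.05 in 2MT for Cox6a2 and Cox6a1 (exact p = 0.8), by 0.06 for Cox7a1 and Cox7a2 (0.4) and by -0.06 for Cox8b and Cox8a (0.6). The Cox6a pair turned in sign without 2MT 1 (0.01) or saline 2 (0.03). Cox4i2, a form known for lung and for induction by low oxygen, lay near the floor, at 5.09, 4.86 and 5.08 in 2MT and 4.77, 4.95 and 5.0 in saline. Against Cox4i1 it changed by 0.30, with no overlap of the within-array differences (exact p = 0.1). On its own Cox4i2 changed by 0.10, with overlap (limma adjusted p = 0.675), and Cox4i1 by -0.19. Cox6b2, a testis form, was at 3.89, 4.05 and 4.23 in 2MT and 4.12, 4.23 and 4.38 in saline, while Cox6b1, the common form, was at 11.76, 11.79 and 11.74 against 11.77, 11.67 and 11.78. Since Cox6b2 lay under the floor, nothing is read from the change of this pair, which is counted among the 5. Adjusted over the 5 pairs the p values lay between 0.5 and 0.8. The other testis forms, Cox7b2 and Cox8c, averaged 1.66 and 3.44 in 2MT against 1.70 and 3.64 in saline, both under the floor.

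**Figure D2:**
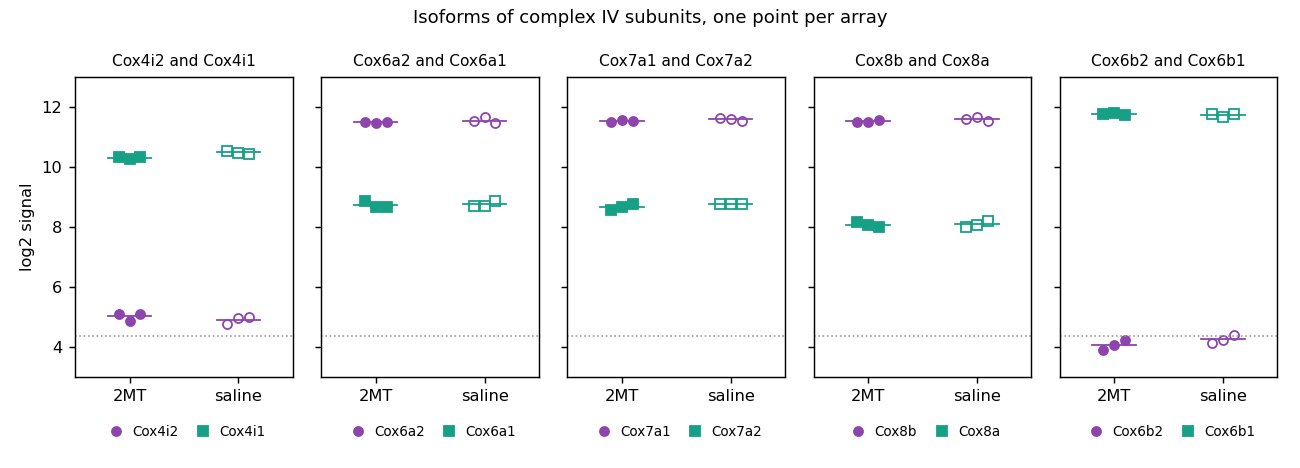
Log2 signal of the isoforms of 5 complex IV subunits, with a panel for each pair, filled symbols for the 3 2MT arrays, open symbols for the 3 saline arrays and lines for group means. The dotted line is the floor of 4.345. In each panel the 2MT and saline means lie close together, and Cox6b2 is the 1 gene with both means under the floor.

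The 17 ATP synthase genes were split, 9 with a lower and 8 with a higher mean in 2MT. In limma 0 passed, against 4.63% of all genes tested. At an unadjusted p under 0.05 there were 7 (41.2%), against 17.8% of all genes. In the catalytic head, Atp5a1 and Atp5b, the alpha and beta subunits that form the catalytic sites, averaged 12.21 ± 0.04 and 12.29 ± 0.03 in 2MT, against 12.25 ± 0.02 and 12.26 ± 0.02 in saline (SD, n = 3 each). Atp5c1, the gamma subunit of the rotating shaft, was at 11.46, 11.46 and 11.46 in 2MT, against 11.28, 11.29 and 11.39 in saline. It lay above all saline arrays, by 0.14 ± 0.04 (SE, limma adjusted p = 0.0845), and passed without saline 3 (0.0248). Atp5d and Atp5e, the delta and epsilon subunits of the shaft, had differences of 0.04 and -0.11, and the groups of Atp5e did not overlap, at 8.45, 8.42 and 8.52 in 2MT against 8.61, 8.54 and 8.56 in saline.

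The genes of the peripheral stalk, which keeps the head from turning, differed in both directions. Atp5pb, subunit b, was at 11.46, 11.42 and 11.49 in 2MT, against 11.32, 11.36 and 11.39 in saline (log2 difference 0.10, adjusted p = 0.215). Its second probe set did not share the difference, with means of 10.80 in 2MT and 10.81 in saline. Atp5h, subunit d, was at 11.76, 11.76 and 11.81 in 2MT, against 11.67, 11.72 and 11.68 in saline (adjusted p = 0.264). Its 3 probe sets all had a higher mean in 2MT, by 0.09 to 0.16. Atp5j, subunit F6, and Atp5o, the protein that ties the stalk to the head, had differences of -0.01 and -0.06, with overlap.

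In the membrane part, Atp5k, subunit e, which helps pair ATP synthases along the cristae, was at 8.02, 7.92 and 7.94 in 2MT, against 8.14, 8.17 and 8.10 in saline. It was lower without overlap, by -0.18 ± 0.06 (SE), and did not pass (limma adjusted p = 0.104). Its partner Atp5l, subunit g, overlapped, with differences between -0.06 and -0.01 over 6 probe sets. Atp5j2, subunit f, was at 11.62, 11.60 and 11.66 in 2MT, against 11.68, 11.73 and 11.74 in saline (adjusted p = 0.254). Atp5mpl, a small proteolipid, was at 10.49, 10.46 and 10.53 in 2MT, against 10.61, 10.53 and 10.65 in saline, with 10.53 on an array of either group (adjusted p = 0.261). Atp5md, a small subunit linked to dimers, was higher on average by 0.09 on each of its 3 probe sets.

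The proton-carrying ring is built from 1 mature protein that 3 genes encode. Of these, Atp5g3 was at 11.39, 11.36 and 11.37 in 2MT, against 11.43, 11.45 and 11.50 in saline, without overlap (adjusted p = 0.274). Atp5g1 and Atp5g2 overlapped, with differences of 0.04 and 0.08. Atpif1, which inhibits ATP synthase when it runs backwards and whose symbol lies outside the rule, was at 11.06, 11.01 and 10.97 in 2MT and 10.99, 10.99 and 11.14 in saline (adjusted p = 0.85).

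**Figure D3:**
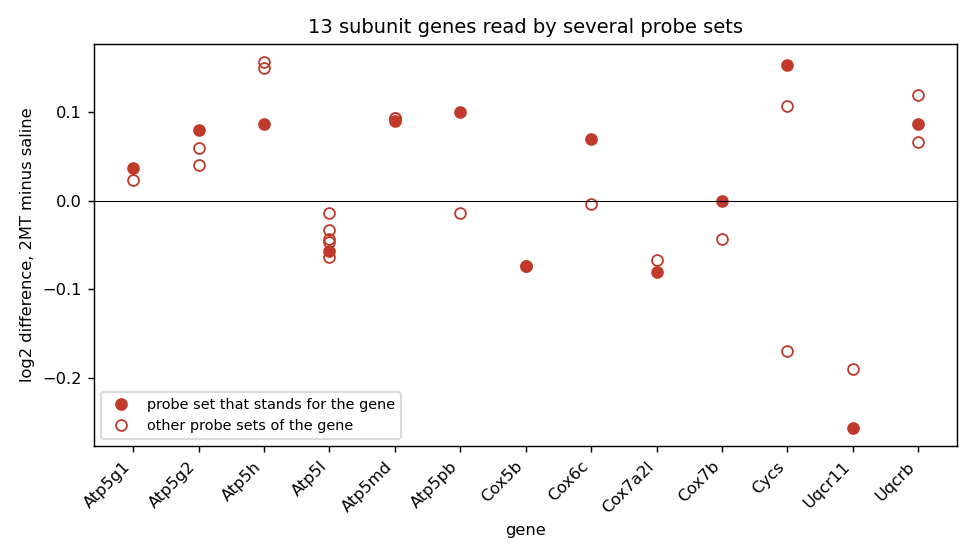
Log2 difference, 2MT minus saline, of every probe set of the 13 genes read by several probe sets. Filled circles stand for the gene in the tests and open circles are its other probe sets. In Atp5pb, Cox6c and Cycs 1 open circle lies on the other side of zero from the filled one, and in Cox7b the filled circle is at zero.

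In 9 of these 13 genes all probe sets pointed the same way. Subunit genes of this kind are known to have many processed copies in the genome, and several probe sets of a gene may read such copies, so the one with the highest signal need not be specific to the expressed gene. Tested probe set by probe set, 0 of the 63 of these genes that reached the floor passed in limma, where 420 of all 14480 did. Among these 63 the smallest adjusted p was 0.0537, for Uqcr11, followed by 0.0561 for Cox4i1. The next, 0.0713, was for a probe set of Atp5h at 11.15, 11.08 and 11.14 in 2MT against 10.96, 10.98 and 10.96 in saline.

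Direction went with signal among the subunit genes. Of the 13 genes with a mean signal under 10, 12 were lower in 2MT, with a median of -0.11, and of the 28 at or over 10, 14 were lower, with a median of -0.01. Across the 41 genes the Spearman correlation of difference with mean signal was 0.45, and with cyclic loess normalization it was 0.40, with 12 of 13 and 18 of 28 genes lower. This describes genes that share the same arrays, and its cause was not tested. Over all genes tested the median difference was 0.02 in the 983 genes with signals from 8 up to 10, and 0.01 in the genes at or over 10. Of the complex I subunits given below, most with a mean signal under 10 were also lower in 2MT, while those at or over 10 were split. The pattern was therefore not particular to the genes described here.

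**Figure D4:**
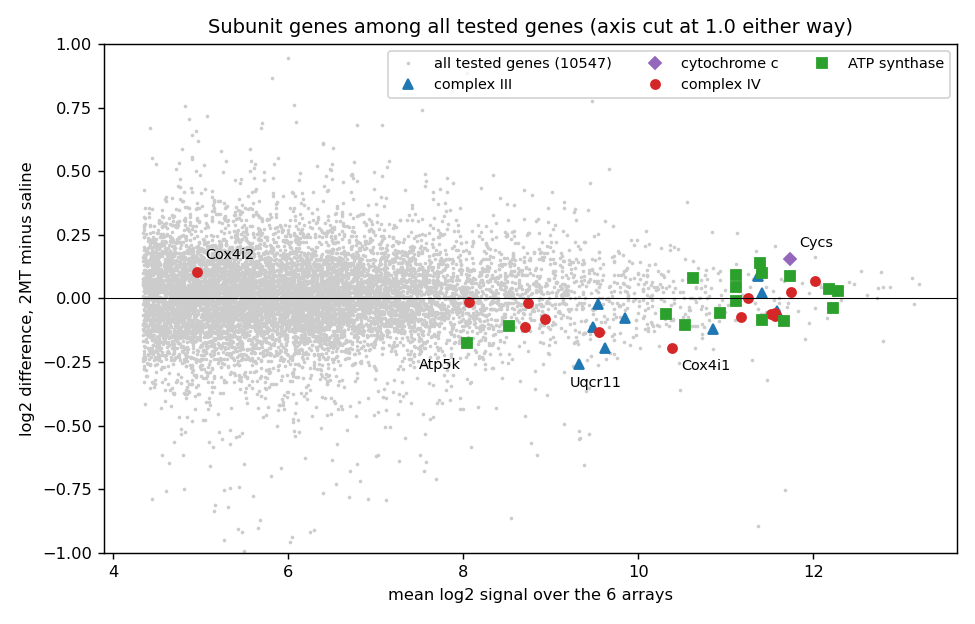
Log2 difference, 2MT minus saline, against mean log2 signal over the 6 arrays. Grey points are all 10547 tested genes, of which 22 lie outside the axis, and coloured symbols are the 41 subunit genes by complex. The subunit genes stay within 0.26 of zero.

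Among other genes of the same machinery, a pair of regulators rose and 1 complex I subunit fell. Ppargc1a and Ppargc1b, coactivators that drive mitochondrial gene programmes, rose by 0.51 ± 0.07 and 0.76 ± 0.09 (SE, limma adjusted p = 9.01e-04 and 1.5e-04), and they were the 2 genes called of 15 regulators of nuclear respiratory genes. Ppargc1a was at 9.92, 9.86 and 9.99 in 2MT, against 9.25, 9.59 and 9.41 in saline. Of the other 13 regulators, Ppara had the smallest p, at 7.71, 7.53 and 7.76 in 2MT against 7.57, 7.46 and 7.37 in saline (adjusted p = 0.171). Of the factors whose motifs are given above, Nrf1 averaged 4.69 in 2MT and 4.78 in saline, near the floor (limma adjusted p = 0.727). Gabpa averaged 7.46 in 2MT and 7.31 in saline, and Yy1 6.70 and 6.71 (limma adjusted p = 0.341 and 0.977). Esrra averaged 6.98 in both, Esrrb 5.75 in 2MT and 5.78 in saline, and Esrrg 7.10 and 7.09 (limma adjusted p = 0.989, 0.926 and 0.948).

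Of 34 complex I subunits, which feed electrons in ahead of complex III, Ndufb11 fell and 0 rose. Their median was -0.03, with a lower mean in 2MT for 21 genes and a higher one for 13. At an unadjusted p under 0.05 there were 9, where all genes had 17.8%. Ndufb11 was at 9.60, 9.45 and 9.50 in 2MT, against 9.76, 9.82 and 9.68 in saline (adjusted p = 0.0236). Its call was lost without 2MT 2 (0.116), 2MT 3 (0.112), saline 1 (0.0794) or saline 2 (0.101). In limma 0 of 4 complex II subunits, 7 complex III assembly factors and 24 complex IV assembly factors or associated proteins (Ndufa4 among them) passed. Of 5 ATP synthase assembly factors and 3 ADP/ATP or phosphate carriers 0 passed as well. At an unadjusted p under 0.05 these lists had 0, 2, 6, 0 and 0 genes, and their medians were -0.01, 0.03, -0.04, -0.03 and -0.01. The differences farthest from zero in these lists were in complex IV assembly factors, -0.33 for Tmem177 and 0.29 for Cox20 (adjusted p = 0.101 and 0.11). The 6 mitochondrially encoded subunits of complexes III, IV and ATP synthase were not found by symbol among the probe sets with 1 symbol. They were not analysed here.

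Markers of the cells a ventricle can hold were set beside these results. Of 8 cardiomyocyte markers 0 passed in limma (0 at an unadjusted p under 0.05), with a median of 0.03. Of 5 endothelial markers Pecam1 fell by 0.33 ± 0.07 (SE, adjusted p = 0.02), a call lost without 2MT 2 (0.092), 2MT 3 (0.112), saline 1 (0.0936) or saline 2 (0.0858). The list was mixed, with 2 of 5 genes higher in 2MT, a median of -0.02 and 2 at an unadjusted p under 0.05, the other being Kdr at 0.24 (adjusted p = 0.157). Of 5 fibroblast, 4 macrophage and 3 smooth muscle markers tested 0 passed (0 at an unadjusted p under 0.05 in each). Brown fat also expresses Cox7a1 and Cox8b. Of its markers, Ucp1 and Elovl3 lay under the floor in both groups, at 3.29 and 2.77 in 2MT against 3.22 and 2.81 in saline, and Cidea, which the heart also expresses, fell by 0.26 ± 0.07 (SE, adjusted p = 0.0435), a call lost whichever array was left out (0.0524 to 0.173). The part of these markers in the small differences of the subunit genes was not tested. Without saline 3, the array with high Alas2 and Bpgm, 5 subunit genes passed (Uqcr11, Cox4i1 and Uqcrq lower, Cycs and Atp5c1 higher). Of all genes 648 passed without it, against 488 with all arrays. Without saline 2, the array with the high atrial markers, 0 subunit genes and 354 of all genes passed, and 0 subunit genes also passed without saline 1 or any 1 of the 2MT arrays.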

How the data were processed

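Expression was measured with 1 array per sample in 3 2MT and 3 saline samples. The deposited table holds 1 log2 signal per probe set and array, from 0.51 to 13.5, with array medians of 4.32 to 4.37. The log2 scale was inferred from that range. MAS5 is named in the submitters' processing notes, with no version or role, and no source used here gives more of the authors' normalization. Signals were used as deposited.

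Probe sets were named through the platform annotation (21789 with 1 symbol, 1621 with several and 5534 with none here), and all 66 member probe sets matched the RefSeq gene table by Entrez ID, with 0 symbols changed. The probe set with the highest mean stood for a gene, and genes under 4.345 were left out as dim. The difference of 2MT from saline was fitted per gene by lmFit and eBayes of limma 3.58.1 (R 4.3.3), with trend, two-sided, and with group as the only term and no replicate block, with Benjamini-Hochberg adjustment over 10547 genes and a threshold of 0.05. Isoform pairs were compared by exact permutation in scipy 1.17.1. The fit was tested on simulated data. Arrays give no count depth, and their number limits the precision.

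The members and lists were chosen with earlier results of these data known. Every member is accounted for, and per-array values are given for called members, the 12 with the smallest p, and the isoform pairs, Cox7a2l, Cyc1, Cycs and Atpif1. Other members given per array were chosen after their values were seen, mostly because their groups did not overlap. Of each other list, called genes are named, up to 4. Other values of list genes (Ppara, Nrf1, Gabpa, Yy1, Esrra, Esrrb, Esrrg, Kdr, Tmem177, Cox20 and some markers) and of the Cox7c probe sets were chosen after seeing the data. The labels give no pairing, so the replicate numbers were not taken as pairs. Same-numbered arrays correlated by 0.07, 0.04 and 0.02 in their deviations from group means, which does not settle whether they were paired. Alternatives were other normalizations, filters, an offset, other uses of probe sets, other variance models, a replicate block, other thresholds and each array left out. Plots used matplotlib 3.10.9 (Python 3.11.15).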

Additional observations from a re-analysis of the deposited data

How the results depend on the processing

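The count of 2 called subunit genes was small and moved with most choices. It was 1 with median centring, 1 with probe sets averaged per gene, 0 with every probe set tested on its own, 0 without the variance trend, 0 at an adjusted p under 0.01 and 5 under 0.10, and 0 to 5 with 1 array left out. It was 3 with quantile normalization, cyclic loess, the stricter dim filter (5.345) or array weights, and 2 with no dim filter or an offset of 16. The count of 488 genes over the whole table was 292 without the variance trend, 219 and 768 at the stricter and looser threshold, and 262 to 648 with 1 array left out. With the replicate number as a block, 586 genes and 4 subunit genes passed (Cycs and Uqcrq besides Uqcr11 and Cox4i1), and 5 of 6 arrays correlated best with their own number, a hint from the data and not from the design.

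For 22 named subunit genes, 340 of 373 values under the alternatives kept their direction and their side of the threshold, 16 lost a call, 9 gained one and 8 changed sign. The sign changes were in genes near zero: with 1 array left out, Cox6a1 ran from -0.0883 to 0.0317, Cox6b1 from -0.0117 to 0.0433 and Cox8a from -0.0633 to 0.0517, while Cox6b1 was at -0.0074 with cyclic loess and Cox8a at 0.0014 with quantile normalization. Uqcr11 and Cox4i1 stayed negative in all alternatives run, between -0.32 and -0.21 and between -0.22 and -0.16, and each passed in 9 of 17. Cidea passed in 6 of 16, Pecam1 and Ndufb11 in 11 of 16, and Ppargc1a and Ppargc1b in 16 of 16, alternatives run for these after seeing the data. With 1 array left out, the change within the Cox6a2 and Cox6a1 pair ran from -0.14 to 0.03. The causes were not tested. Without detection calls, signal over background is unknown, which touches Cox4i2 most.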
